A study of Homo sapiens with 24 samples.

Results

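The AP-1 family comprises the genes of the FOS proteins (FOS, FOSB, FOSL1 and FOSL2) and of the JUN proteins (JUN, JUNB and JUND). Its members were chosen by gene symbol, by taking every probe annotated to one of these 7 symbols, which gave 7 probes, 1 per gene, among the 47323 probes of the array. No measured value entered the choice, although the family was picked with earlier results of these data known. All 7 genes passed the detection filter and stand among the 13283 genes that were tested. RNA came from HEK293, an established human embryonic kidney cell line, and was hybridised to Illumina bead arrays. The 4 groups were cells given MOTS-c, a peptide encoded within the mitochondrial 12S ribosomal RNA gene, at 10 µM for 72 h, cells given water for 72 h (72 h controls), cells given MOTS-c at 10 µM for 4 h, and cells given water for 4 h (4 h controls). Every group held 6 arrays of this single line, grown in the same phenol-free, serum-supplemented medium. The labels number the replicates and do not say that they were separate cultures, so the p-values reflect how far these arrays differed, and that spread can be of technical origin.

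AP-1 is a dimeric transcription factor in which a JUN protein pairs through a leucine zipper with a FOS protein, with another JUN protein or with a related ATF or MAF protein. FOS proteins do not form stable dimers with each other and need a JUN partner. FOS, FOSB and JUNB are textbook immediate early genes, switched on within minutes by serum, growth factors and stress through MAP kinase signalling and then rapidly switched off, whereas JUND is expressed steadily in most cells. In kidney epithelial lines, as elsewhere, AP-1 acts on genes of proliferation, matrix breakdown and inflammation.

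The bases just upstream of the start of 5 members are printed because each holds a CRE core, a full CRE or a JUN site, in members that did and did not change. JUNB held none of these sites and is not printed. Each run holds the 250 bases before the RefSeq gene start on the GRCh38.p14 build, read 5′ to 3′ on the strand of the gene, and 6 of the 7 members had an entry. The stretches are chr14:75278578-75278827 on the plus strand for FOS, chr19:45467746-45467995 on the plus strand for FOSB, chr2:28392608-28392857 on the plus strand for FOSL2, chr1:58784048-58784297 on the minus strand for JUN, and chr19:18281623-18281872 on the minus strand for JUND. Capitals mark matches to the CRE core TGACGT, the full CRE TGACGTCA, the JUN site TGACATCA or the TATA element TATAAA, on either strand.
FOS: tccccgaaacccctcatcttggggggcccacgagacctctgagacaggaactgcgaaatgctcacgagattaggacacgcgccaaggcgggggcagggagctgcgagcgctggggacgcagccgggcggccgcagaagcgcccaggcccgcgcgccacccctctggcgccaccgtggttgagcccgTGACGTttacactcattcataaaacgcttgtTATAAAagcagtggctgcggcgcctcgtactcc
FOSB: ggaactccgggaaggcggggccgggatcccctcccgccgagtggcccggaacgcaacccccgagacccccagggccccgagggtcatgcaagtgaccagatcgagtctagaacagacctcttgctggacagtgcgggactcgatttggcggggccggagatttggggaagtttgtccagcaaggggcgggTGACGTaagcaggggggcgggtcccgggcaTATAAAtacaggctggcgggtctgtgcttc
FOSL2: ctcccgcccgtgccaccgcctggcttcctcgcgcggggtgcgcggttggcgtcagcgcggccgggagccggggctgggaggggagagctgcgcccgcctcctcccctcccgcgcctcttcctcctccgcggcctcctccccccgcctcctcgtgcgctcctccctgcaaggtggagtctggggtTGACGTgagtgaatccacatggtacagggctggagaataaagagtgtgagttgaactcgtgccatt
JUN: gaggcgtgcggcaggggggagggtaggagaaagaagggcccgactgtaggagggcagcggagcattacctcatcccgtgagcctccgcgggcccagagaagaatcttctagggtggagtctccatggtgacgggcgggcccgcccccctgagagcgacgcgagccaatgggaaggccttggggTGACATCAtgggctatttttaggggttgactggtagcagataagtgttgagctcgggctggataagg
JUND: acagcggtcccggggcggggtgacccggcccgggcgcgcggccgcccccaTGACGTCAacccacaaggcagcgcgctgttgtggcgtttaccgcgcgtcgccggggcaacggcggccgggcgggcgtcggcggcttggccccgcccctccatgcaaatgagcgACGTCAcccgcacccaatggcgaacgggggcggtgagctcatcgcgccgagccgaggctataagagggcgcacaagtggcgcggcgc

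The CRE is the site bound by CREB and ATF proteins, and its core was added to the search after the sequences had been seen. FOS, FOSB and FOSL2 each held 1 CRE core at a like distance from the start, with its first base at -64 in FOS, -60 in FOSB and -66 in FOSL2. FOS and FOSB also shared a TATA element, which began at -33 in FOS and -30 in FOSB, and JUNB had one that began at -31. JUN carried the variant site known from its own autoregulation at -67, and JUND carried a full CRE at -200 together with a further core on the opposite strand from -87 to -82. The 2 other core matches of JUND lay inside its full CRE. Among 27305 promoters of the same length, 7.42% held the core, 1.77% the full CRE, 2.45% the JUN site and 11.1% the TATA element. The GC box GGGCGG, not capitalised because 42.3% of promoters held it, occurred in 5 of the 6 members and in 5 copies in JUND. Neither the AP-1 site TGANTCA, held by 6.6% of promoters, nor the CArG box of serum response elements, held by 1.14%, was found in the window of any of the 6 members. Bases outside this window of 250 were not searched, so the members may hold such sites farther away. A match is a description of these letters and not a measured binding site, and these arrays measured no binding.

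**Figure D1:**
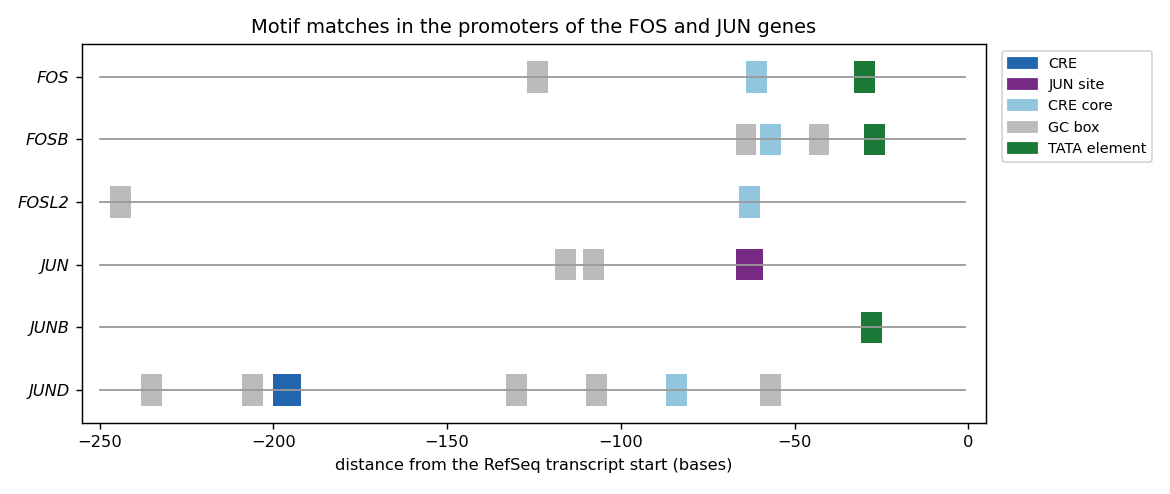
Motif matches in the 250 bases upstream of the start of 6 AP-1 genes, plotted as distance from the start in bases, with 1 line per gene and 1 colour per motif. Core matches inside the full CRE of JUND are not drawn. The CRE cores of FOS, FOSB and FOSL2 lie within a few bases of each other, and JUND has the full CRE.

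Mean raw intensity per array lay between 399 and 629. The number of probes detected per array was 21741 to 22778 in 72 h MOTS-c cells, 21853 to 23405 in 72 h controls, 20719 to 21703 in 4 h MOTS-c cells and 21059 to 21680 in 4 h controls. It thus separated the times without overlap, and not the treatments. Arrays of a group correlated at 0.987 to 0.997. Of 12 genes known to mark HEK293, 10 were detected on all 24 arrays, whereas the kidney factor PAX8 was detected on no array and PAX2 on 8. The leukocyte marker CD3E and the endothelial markers PECAM1, CDH5 and TEK were detected on no array, and the leukocyte marker PTPRC was detected on 3. Other markers of these lists were detected, with the leukocyte markers CD14 and CD68 on all 24 arrays and LYZ on 20. The fibroblast markers COL1A1 and LUM were also detected on all 24 arrays, PDGFRA on 14, COL3A1 on 8, DCN on 6 and COL1A2 on 1. The endothelial markers VWF and KDR were detected on 6 and 3 arrays. Levels are neqc log2 intensities, in which the background was removed and a constant of 16 added, so that fold changes of dim probes are compressed towards 1. Differences of a gene are given between groups on this log2 scale, and no gene's level is set against that of another gene, since probes differ in brightness for reasons other than RNA amount.

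**Figure D2:**
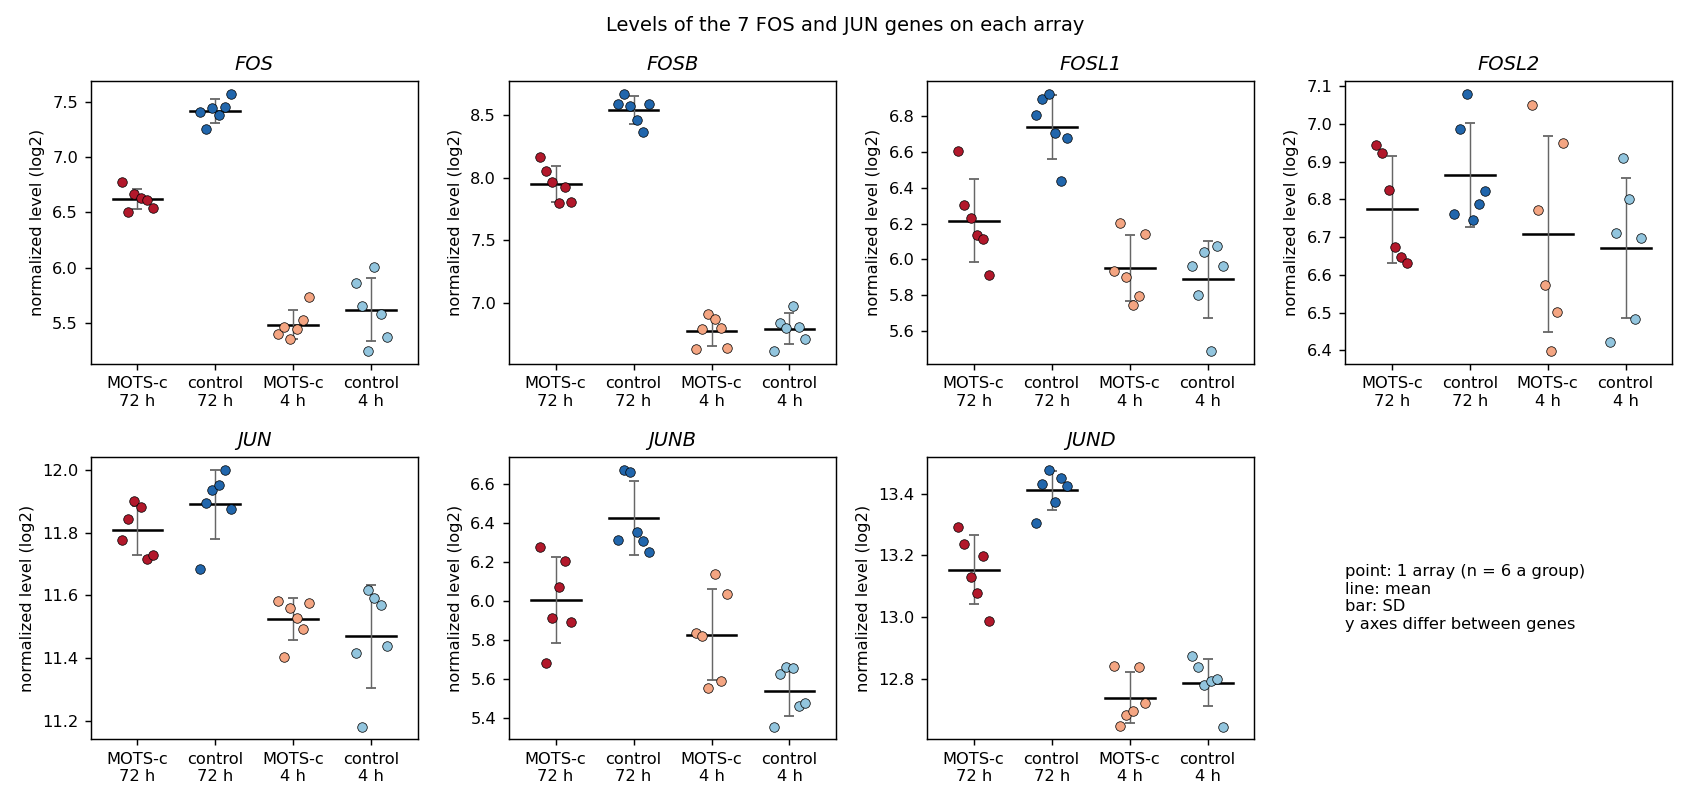
Normalized log2 intensity of each AP-1 gene on every array, with 1 panel per gene, 1 point per array (n = 6 per group), a line at the group mean, a bar for the SD and a y axis of its own in each panel. In the FOS, FOSB and JUND panels the 72 h MOTS-c points lie below all 72 h control points and above all points of both 4 h groups.

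After 72 h, MOTS-c cells had less FOS, FOSB, FOSL1, JUNB and JUND RNA than controls, and JUN and FOSL2 did not pass the test. Of the 7 members, 5 were lower, 0 were higher and 2 were not called (limma, adjusted p under 0.05), in a comparison in which 45.1% of all genes were called, 22.1% were called higher and 22.9% lower. The median difference of the 7 members was -0.42 on the log2 scale, against 0.0062 over all genes tested. The groups did not overlap for 3 members, FOS, FOSB and JUND, where 13.1% of all genes lay wholly below their controls. In RNA of bulk cultures, fewer cells that express a gene and less RNA per cell cannot be told apart.

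FOS, the founding immediate early gene of the family, lies at chr14:75278828-75282230 (GRCh38.p14, as for all gene positions here). Its log2 level at 72 h had a lowest value of 6.51, a median of 6.62 and a highest value of 6.77 in MOTS-c cells, against 7.25, 7.42 and 7.57 in controls. Every MOTS-c array was lower than every control array. The difference was -0.80 ± 0.096 (SE, n = 6 per group), a 1.74-fold reduction with a 95% interval of -0.99 to -0.60 and an adjusted p of 1.85e-07. It was the 241st lowest difference among the 13283 genes and the most negative of the 7 members.

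FOSB, which can also give rise to the long-lived splice form ΔFosB, lies at chr19:45467996-45475179. At 72 h its lowest, median and highest log2 levels were 7.80, 7.95 and 8.16 in MOTS-c cells, against 8.36, 8.58 and 8.67 in controls. Again no MOTS-c array reached the range of the controls. The difference of -0.59 ± 0.074 (SE, n = 6 per group) was a 1.50-fold reduction with an adjusted p of 3.41e-07. The single probe of the gene cannot separate its splice forms.

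FOSL1 encodes FRA1, a FOS protein often raised in invasive tumour cells, and lies at chr11:65892049-65900545. At 72 h its lowest, median and highest log2 levels were 5.91, 6.18 and 6.60 in MOTS-c cells, against 6.44, 6.76 and 6.93 in controls. One group reached into the other, but 5 of the 6 MOTS-c arrays lay below all controls. The difference was -0.53 ± 0.11 (SE, n = 6 per group), a 1.44-fold reduction with an adjusted p of 0.000324. FOSL2, which encodes the related FRA2 and lies at chr2:28392858-28417317, ran from 6.63 through a median of 6.75 to 6.94 in MOTS-c cells, against 6.75, 6.81 and 7.08 in controls. The FOSL2 groups overlapped, and their difference of -0.09 had a 95% interval of -0.30 to 0.12 and an adjusted p of 0.501.

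Among the JUN genes, JUNB, whose protein can restrain the activity of JUN, lies at chr19:12791486-12793315. Its lowest, median and highest log2 levels at 72 h were 5.68, 5.99 and 6.28 in MOTS-c cells, against 6.25, 6.33 and 6.67 in controls. The groups overlapped narrowly, with 5 of the 6 MOTS-c arrays below all controls. Its difference was -0.42 ± 0.11 (SE, n = 6 per group), a 1.34-fold reduction with an adjusted p of 0.00217. JUND, the steadily expressed JUN protein, lies at chr19:18279694-18281622 and had lowest, median and highest log2 levels of 12.99, 13.16 and 13.29 in MOTS-c cells, against 13.31, 13.43 and 13.48 in controls. Although the JUND groups stood apart, the difference was small, at -0.26 ± 0.059 (SE, n = 6 per group), a 1.19-fold reduction with an adjusted p of 0.00079. With arrays scaled to a common median and no background correction it was -0.11 with an adjusted p of 0.217. Under the same scaling FOS was -0.55, FOSB -0.38, FOSL1 -0.33 and JUNB -0.25, all still called. That scaling gave 3496 higher and 1405 lower calls over all genes, against 2936 higher and 3048 lower calls here.

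JUN, the main partner of FOS proteins, lies at chr1:58780791-58784047. Its lowest, median and highest log2 levels at 72 h were 11.72, 11.81 and 11.90 in MOTS-c cells, against 11.68, 11.92 and 12.00 in controls. The MOTS-c range lay within that of the controls. The difference was -0.08, with a 95% interval of -0.23 to 0.06 and an adjusted p of 0.34. Under scaling to a common median its sign turned, to 0.12, and it was again not called.

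Of the markers of other cell types, 3 were called at 72 h, all lower in MOTS-c cells, where 45.1% of all genes were called and 22.9% were lower. The called markers were CD14 among 3 tested leukocyte markers, at -0.76 (adjusted p = 3.21e-08), and COL3A1 among 5 tested fibroblast markers, at -0.30 (adjusted p = 0.00388). The third was VWF, the 1 tested endothelial marker, at -0.63 (adjusted p = 3.41e-07). VWF was detected on all 6 control arrays at 72 h and on no other array. It entered the test only through the group in which it was high, so its call carries no weight as evidence. CD68 was not called, at -0.29 (adjusted p = 0.0658), and its other probes gave 0.08 and 0.01. Neither COL1A1 (adjusted p = 0.0897) nor LUM (adjusted p = 0.119) passed the test. The summed linear level of the 5 leukocyte markers on the array was 650 to 711 in MOTS-c cells and 724 to 1084 in controls. For 6 fibroblast markers it was 496 to 526 in MOTS-c cells and 522 to 603 in controls, and for 5 endothelial markers 145 to 174 in MOTS-c cells and 165 to 179 in controls, so these last 2 sums overlapped. Of 11 tested HEK293 markers, 3 were higher and 4 were lower, beside 22.1% higher and 22.9% lower over all genes. The lower markers were the neurofilament genes NEFM at -1.01, NEFH at -0.74 and NEFL at -0.32, and GATA3 at -0.66. The higher ones were LIN28B at 0.27, VIM at 0.21 and LHX1 at 0.21. For the 12 HEK293 markers on the array the summed linear level was 17130 to 17829 in MOTS-c cells and 15072 to 16956 in controls. The part of all these markers in the AP-1 differences was not tested.

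After 4 h of MOTS-c, 0 of the 7 members passed the test, in a comparison that called 0.00753% of all genes, a single gene. At an unadjusted p under 0.05, 1 member and 1567 of all genes differed. That member was JUNB, whose lowest, median and highest log2 levels were 5.55, 5.83 and 6.14 in MOTS-c cells, against 5.36, 5.55 and 5.66 in controls. Of the 6 MOTS-c arrays, 4 lay above all controls, of which 5 had detected the probe. The JUNB difference was 0.29 with a 95% interval of 0.07 to 0.51, an unadjusted p of 0.0118 and an adjusted p of 0.301. The other 6 members differed by -0.14 to 0.07. The groups overlapped for all 7 members, where they were apart for 0.542% of all genes. FOS, with its difference of -0.14, was close to the background, since its probe was detected on 4 of the 6 arrays of either group.

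**Figure D3:**
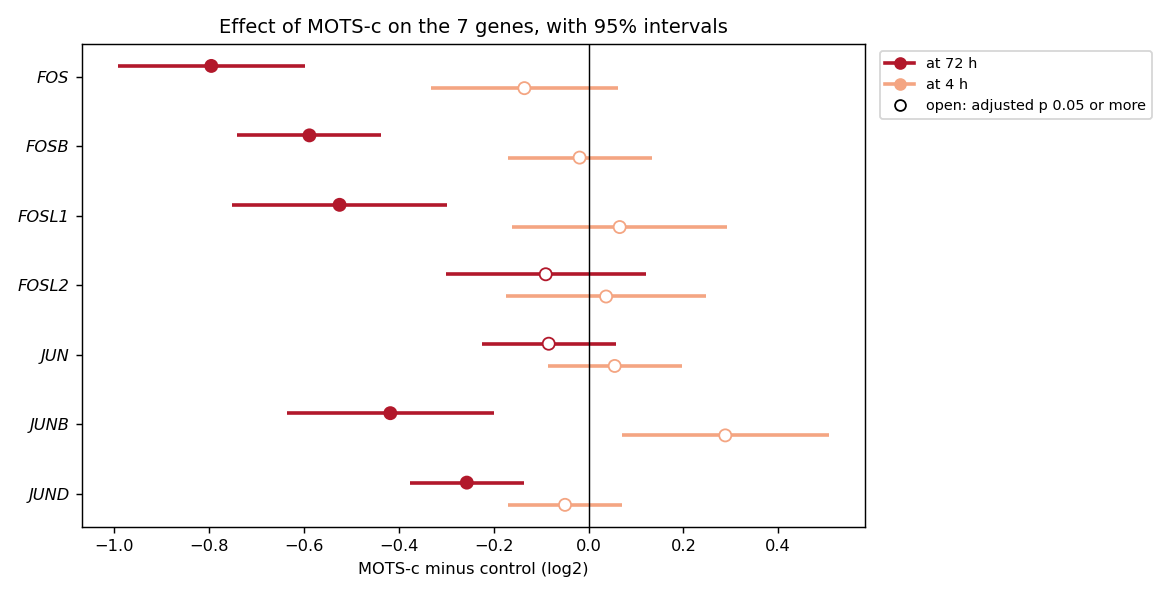
Log2 difference of each AP-1 gene between MOTS-c and control cells at 72 h and at 4 h, with 95% intervals from the limma fit (n = 6 arrays per group). The 72 h values run from -0.80 for FOS to -0.08 for JUN, and the 4 h values from -0.14 for FOS to 0.29 for JUNB.

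For 4 members the response to MOTS-c was not the same at both times. The interaction, which is the effect at 72 h minus the effect at 4 h, was lower for 4 of 7 members and higher for 0, where it was called for 34% of all genes, higher for 16.7% and lower for 17.4%. It was -0.71 ± 0.15 for JUNB (adjusted p = 0.000671), whose values at the 2 times had opposite signs. The interaction of FOS was -0.66 ± 0.14 (adjusted p = 0.000468), that of FOSL1 was -0.59 ± 0.16 (adjusted p = 0.00443), and that of FOSB was -0.57 ± 0.10 (adjusted p = 0.000134), all with SE from limma and n = 6 arrays per group. JUND stood at the edge of the threshold, with -0.21 and an adjusted p of 0.0549, and its call depends on the processing. It passed under 8 alternative settings, whereas under scaling to a common median it was -0.02 with an adjusted p of 0.888, and with the deposited scores the adjusted p was 0.142. JUN had an interaction of -0.14 (adjusted p = 0.283) and FOSL2 one of -0.13 (adjusted p = 0.532).

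The same interaction is the difference between the changes with time in the 2 kinds of cells, which share the 72 h and 4 h arrays with the comparisons above. In MOTS-c cells 4 members rose between 4 h and 72 h, where 38.1% of all genes were called, 19.9% higher and 18.2% lower. FOSB rose by 1.18 ± 0.074 (2.26-fold, adjusted p = 2.95e-12), and FOS by 1.14 ± 0.096 (2.20-fold, adjusted p = 6.22e-10). JUND rose by 0.41 (adjusted p = 3.43e-06) and JUN by 0.28 (adjusted p = 0.00193). All 4 of these had ranges apart from those at 4 h, as 9.74% of all genes did in this direction. FOSL1 differed by 0.26 (adjusted p = 0.0595), JUNB by 0.18 (adjusted p = 0.194) and FOSL2 by 0.07 (adjusted p = 0.641), and none of these 3 passed the test.

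In control cells 6 members rose between 4 h and 72 h, where 62.6% of all genes were called, 31.9% higher and 30.7% lower. FOS rose by 1.80 ± 0.096 (3.48-fold, adjusted p = 1.26e-14) and FOSB by 1.75 ± 0.074 (3.36-fold, adjusted p = 1.04e-16), the 43rd and the 49th highest of the 13283 changes. JUNB rose by 0.88 (1.85-fold, adjusted p = 6.2e-08), FOSL1 by 0.85 (1.81-fold, adjusted p = 1.94e-07), JUND by 0.62 (1.54-fold, adjusted p = 7.99e-10) and JUN by 0.42 (1.34-fold, adjusted p = 7.07e-06). The ranges at 72 h and 4 h were apart for these 6 members, as for 18.9% of all genes in this direction. FOSL2 differed by 0.19 with a 95% interval of -0.02 to 0.40 (adjusted p = 0.102). Since FOS was at the background on 2 arrays of each 4 h group, its change with time is compressed by the added constant. The number of detected probes also separated 72 h from 4 h arrays, and its part in the changes with time was not tested.

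**Figure D4:**
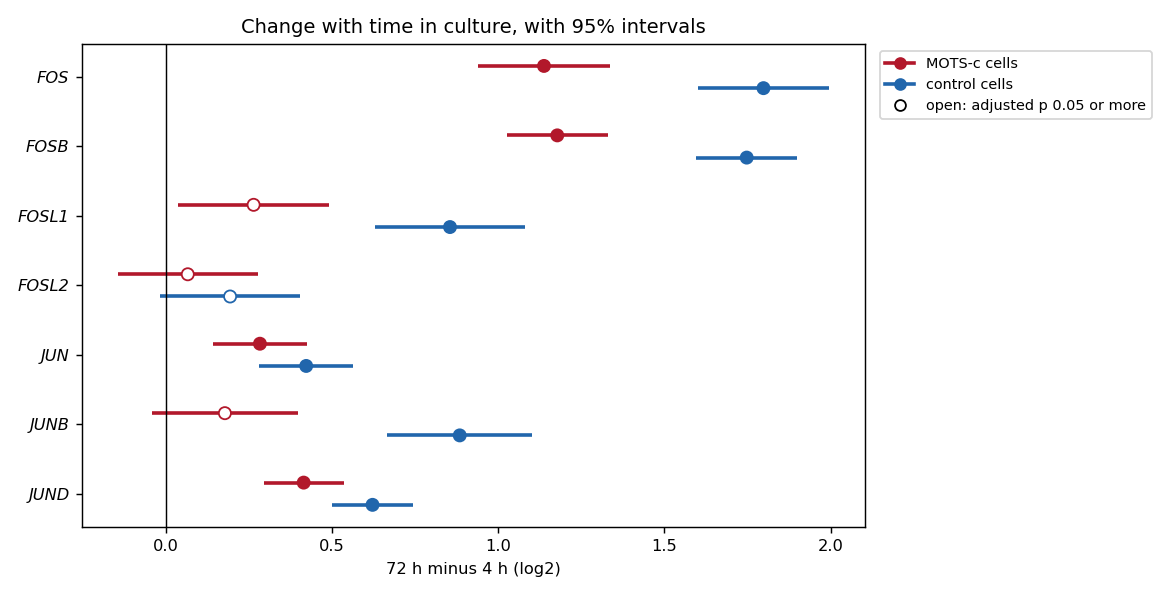
Log2 difference between 72 h and 4 h for each AP-1 gene in MOTS-c cells and in control cells, with 95% intervals (n = 6 arrays per group). FOS reaches 1.14 in MOTS-c cells and 1.80 in control cells, and FOSL2 lies at 0.07 and 0.19.

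For all 7 genes the 72 h controls had the highest mean and the 72 h MOTS-c cells the next highest. For FOS, FOSB and JUND the ranges of the 72 h groups were apart from each other and from those of the 4 h groups, while the 4 h groups overlapped. In JUN, neighbouring groups were apart only between 72 h MOTS-c and 4 h MOTS-c cells. In FOSL1, FOSL2 and JUNB each group overlapped with its neighbours in the order of means. JUNB had group means of 6.01 in 72 h MOTS-c cells and 6.42 in 72 h controls, and of 5.83 in 4 h MOTS-c cells and 5.54 in 4 h controls. FOS had group means of 6.62 in 72 h MOTS-c cells and 7.42 in 72 h controls, and of 5.49 in 4 h MOTS-c cells and 5.62 in 4 h controls.

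Genes downstream of AP-1 were described with a list of 26 genes with well-known AP-1 sites, of which 17 were tested. At 72 h 11 of the 17 were lower in MOTS-c cells, 0 were higher and 6 were not called, with a median of -0.39. Over all genes 22.9% were lower and 22.1% higher in this comparison. Among the 11 was MMP10, detected at 72 h on 5 control arrays and 1 MOTS-c array, and on 0 arrays at 4 h. It passed the detection filter mainly through the group in which it was high, so its call carries no weight as evidence. CXCL8, which encodes the neutrophil chemoattractant interleukin 8, averaged 9.31 ± 0.22 in MOTS-c cells and 11.28 ± 0.18 in controls (SD, n = 6 each) on the log2 scale, a difference of -1.97 ± 0.13 (SE, adjusted p = 5.23e-12). Its other probe gave -1.84. MMP9, a gelatinase that degrades matrix, differed by -1.30 (adjusted p = 4.2e-11), and HMOX1, the haem-degrading stress enzyme, by -0.90 (adjusted p = 4.41e-09). PLAUR, the urokinase receptor, differed by -0.57 (adjusted p = 8.33e-06), and DUSP1, a phosphatase that switches off MAP kinases, by -0.55 (adjusted p = 7.01e-08). The further probes of PLAUR gave -0.37 and -0.42. These genes have other regulators besides AP-1, and no binding was measured.

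Other transcription factors of the immediate early wave were mixed: of 9 tested, from 14 listed, 4 were lower, 1 was higher and 4 were not called at 72 h, with a median of -0.30. These 5 calls of 9 stand beside 45.1% called over all genes. MYC, the growth regulator, differed by -0.98 (adjusted p = 1.36e-12), KLF10 by -0.90 (adjusted p = 2.9e-08), EGR1, a zinc finger factor induced by the same signals as FOS, by -0.65 (adjusted p = 1.19e-07), and KLF6 by -0.50 (adjusted p = 6.17e-07). KLF2 was the one higher gene, at 0.21 (adjusted p = 0.0403). The dimer partners went both ways, with 3 lower, 2 higher and 4 not called of 9 tested, from 13 listed, and a median of -0.05, again 5 calls of 9 beside that 45.1%. ATF3, a stress-induced partner of JUN proteins, differed by -0.38 (adjusted p = 2.81e-06), although its other probe gave 0.03. BATF3 was lower at -0.42 (adjusted p = 0.000161) and MAFF at -0.43 (adjusted p = 0.0323, with its other probe at -0.37), while MAF was higher at 0.48 (adjusted p = 3.44e-07) and ATF2 at 0.40 (adjusted p = 0.00124).

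Of 11 tested genes, from 16 listed, of the MAP kinase cascades that lead to AP-1, 5 were higher in MOTS-c cells at 72 h, 0 were lower and 6 were not called, with a median of 0.06. This share of calls is near the 45.1% over all genes. MAP2K4, which activates JNK, was higher by 0.54 (adjusted p = 4.34e-05), and MAPK8, the gene of JNK1, by 0.47 (adjusted p = 7.8e-05). The other probe gave 0.07 for MAP2K4 and -0.10 for MAPK8, so these 2 calls rest on the choice of probe. MAP2K1, which encodes MEK1, was higher by 0.29 (adjusted p = 0.000411), MAPK9, the gene of JNK2, by 0.27 (adjusted p = 0.00105), and MAP3K1 by 0.27 (adjusted p = 0.0147). MAPK9 too had another probe that was not called, at 0.22 (adjusted p = 0.0916). RNA levels of kinases say nothing about their activity.

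Of 13 tested regulators of FOS and JUN transcription, from 14 listed, 2 were higher, 2 were lower and 9 were not called, with a median of 0.09, beside 22.1% higher and 22.9% lower over all genes. CRTC2, a coactivator of CREB, was higher by 0.42 (adjusted p = 0.000267) and MRTFB, a coactivator of SRF, by 0.53 (adjusted p = 0.00249), while MEF2A was lower at -0.31 (adjusted p = 0.0233). CRTC1, another CREB coactivator, was detected on all 6 control arrays and on none of the MOTS-c arrays at 72 h. That makes it at least 1.17-fold lower in MOTS-c cells. This bound sets the control mean against the dimmest detected probes of the MOTS-c arrays and was not itself tested. The difference of the measured means was -0.51 (limma, adjusted p = 7.99e-05). At 4 h CRTC1 was detected on 1 MOTS-c array and on 0 control arrays. It passed the detection filter only through the 72 h controls, in which it was high. Its call, 1 of the 2 lower ones among the regulators, therefore carries no weight as evidence. Of 8 tested genes, from 9 listed, for turnover of FOS and JUN proteins and for their co-regulators, 6 were higher, 1 was lower and 1 was not called, with a median of 0.22, beside the same shares. JAZF1, higher by 0.68 (adjusted p = 3.58e-07), is a nuclear receptor cofactor with no established role for FOS or JUN proteins, and without it 5 of 7 were higher. ITCH, a ubiquitin ligase for JUN proteins, was higher by 0.33 (adjusted p = 0.00116), and COPS5, the JUN coactivator JAB1, by 0.29 (adjusted p = 0.000324). DET1, an adaptor of a ubiquitin ligase for JUN, was the lower one at -1.25 (adjusted p = 1.8e-15), and its other probe gave -1.21. FBXW7, a ubiquitin ligase subunit, was called higher at 0.29 (adjusted p = 0.00372), but its other probes gave -0.30 and -1.13, so its direction depends on the probe.

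**Figure D5:**
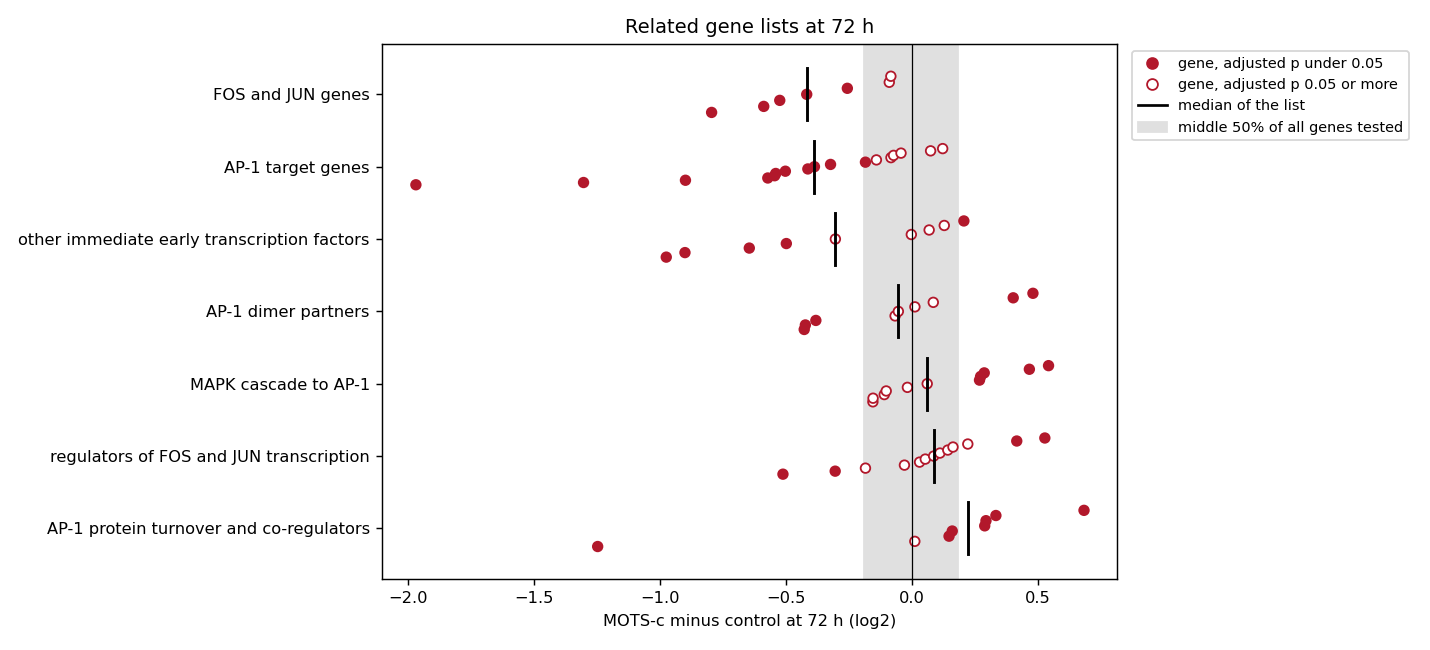
Log2 difference between MOTS-c and control cells at 72 h for the 7 FOS and JUN genes and for every tested gene of the 6 lists of related genes, with 1 point per gene (filled where called), a line at the median of each list and a shaded band for the middle 50% of all genes. The AP-1 target genes have a median of -0.39 and the genes of turnover and co-regulation one of 0.22.

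At 4 h 0 genes of any of these 6 lists were called by limma. The interaction was lower for 9 and higher for 0 of the 17 target genes, and higher for 5 and lower for 0 of the 11 kinase genes. Those 9 include MMP10, which passed the detection filter mainly through the 72 h controls, so its call carries no weight as evidence. It was higher for 5 and lower for 1 of the 8 genes of turnover and co-regulation. Of the 9 immediate early factors it was lower for 4 and higher for 1, and of the 9 dimer partners lower for 2 and higher for 1. For the 13 regulators it was higher for 2 and lower for 1. The lower one was CRTC1, which passed the detection filter only through the 72 h controls, so that call carries no weight as evidence. Over all genes it was called higher for 16.7% and lower for 17.4%. The lists were chosen with earlier results of these data known, so their counts describe these genes and are no independent evidence of a direction.

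The genes whose levels ran most like those of the members were named by Pearson's r over the 24 arrays, which share their 4 groups, out of 13282 other genes. For FOS these were CXCL8 (r = 0.975), CCL20 (r = 0.974) and RYR1 (r = 0.969). For FOSB they were IL32 (r = 0.993), RASSF1 (r = 0.989) and RELB (r = 0.989), and for JUND they were BCL3 (r = 0.986), HBEGF (r = 0.978) and SLC44A2 (r = 0.977). LSM10 (r = 0.937) ran most like FOSL1, with SECISBP2 (r = 0.933) and CHCHD10 (r = 0.928) after it. TMED9 (r = 0.915), NSUN5P1 (r = 0.908) and EXOSC5 (r = 0.903) were the nearest to JUNB. JUN was nearest to NKAPD1 (r = 0.918), ZNF695 (r = 0.909) and PITHD1 (r = 0.896). FOSL2, the member with no called change, had the loosest likeness, to CIAO2B (r = 0.760), HOXD3 (r = 0.760) and ZDHHC8 (r = 0.748).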

How the data were processed

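RNA of HEK293 cells was measured on 24 Illumina bead arrays, with groups taken from the sample labels. The deposited table holds a raw mean bead intensity per probe and array, read with GenomeStudio 2011.1 per the submitters' processing notes, and no genome build is given in the sources used here. Each deposited intensity comes with a detection p-value against the negative controls of the array. A second deposited table holds a score, which equalled each array's own Z-scored log10 intensity to within 5e-10.

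Normalization used limma 3.58.1 in R 4.3.3. Its neqc function estimated background from the detection p-values, quantile-normalized the arrays and added an offset of 16. The 23931 probes detected (p under 0.05) on 6 or more arrays were kept, of which 17873 had 1 gene symbol and 6058 did not, and the brightest probe stood for a gene. A mean per group was fitted over all 24 arrays, with 20 residual degrees of freedom and a prior worth 6.43. Tests were two-sided, with Benjamini-Hochberg adjustment over 13283 genes and a threshold of 0.05. Adjusted p-values and SE throughout come from this limma fit. The number of arrays limits the precision.

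The members and lists were chosen with earlier results of these data known. Named were the 7 members, up to 5 called genes per list with the smallest p at 72 h, and the 3 genes most like each member. Same-numbered arrays deviated together with correlations of -0.15 to 0.16 at 72 h and -0.23 to 0.09 at 4 h, so the numbers were not taken as pairs. No 2 arrays were identical. Promoters came from RefSeq. Alternatives covered normalization, offset, detection filter, choice of probe, arrays in the fit, array weights, variance prior, array brightness, replicate block and each array left out.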

Additional observations from a re-analysis of the deposited data

Results flagged for a closer look

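The effect of MOTS-c differed between 72 h and 4 h for 4 AP-1 genes, by the interaction term of the limma fit. The effect at 72 h minus the effect at 4 h was -0.71 for JUNB, -0.66 for FOS, -0.59 for FOSL1 and -0.57 for FOSB, on the log2 scale with n = 6 arrays per group. For JUNB the difference between MOTS-c and control cells was -0.42 at 72 h and, in a comparison that did not pass the test, 0.29 at 4 h. In the 28 sets of 6 arrays, 1 per member and group, 0 held an array far enough from the others to pass the critical value of Dixon's test.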

How the results depend on the processing

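Across the other settings, 423 member values kept their call, 9 passed the threshold in addition, 1 no longer passed it and 0 called values changed sign. With a detection p under 0.01 on all 24 arrays, FOS, FOSL1 and JUNB were no longer tested, and of the 4 members left 2 were called at 72 h (53.7% of all genes), 2 in the interaction (41.3%) and 3 over time in controls (66.8%). Under scaling to a common median, JUND at 72 h was -0.11 (adjusted p = 0.217), FOS -0.55, FOSB -0.38, FOSL1 -0.33 and JUNB -0.25. The interaction under that scaling was -0.46 for FOS, -0.38 for FOSB, -0.38 for FOSL1 and -0.44 for JUNB. The median of all genes in that interaction was 0.11, against 0.0020. In the interaction JUND had an adjusted p of 0.0248 to 0.0497 under 8 settings, 0.0579 with the replicate block, 0.0621 with every probe separate, 0.142 with the deposited scores and 0.888 under median scaling (-0.02). Over time under median scaling, FOSL1 and JUNB both rose by 0.56 in controls, and JUN by 0.45 and JUND by 0.64 in MOTS-c cells. In controls the rise of FOS was 1.24 under that scaling, against 1.80 in the main fit. It was 1.27 with quantile normalization alone and 1.30 with an offset of 50. Quantile normalization without background correction gave -0.28 for JUNB at 72 h, -0.46 in its interaction, 0.57 for its change with time in controls and 0.75 for that of FOS in MOTS-c cells, and an offset of 50 gave -0.46, 0.58 and 0.75 for the last 3. Deposited scores are on another scale, so their sizes are not compared. All genes called at 4 h numbered 1, against 33 with array brightness as a covariate, 4 with an offset of 50 or the stricter detection filter, 3 over separate probes, 2 with the deposited scores, the trended prior or quantile normalization alone, and 0 with array weights, median scaling, the replicate block or the 4 h arrays alone.

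With the replicate number as a block, 5 members were called at 72 h, 0 at 4 h, 4 in the interaction, 6 over time in controls and 5 over time in MOTS-c cells, where FOSL1 joined (adjusted p = 0.0455). In the same order, 44.5%, 0%, 33.4%, 62.3% and 37.6% of all genes were called under that setting. Same-numbered arrays matched best in 1 of 6 cases at 72 h and 0 of 6 at 4 h.

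With single arrays left out, 5 members were called at 72 h and 0 at 4 h in each of the 24 fits, 4 to 5 in the interaction, 6 to 7 over time in controls and 4 to 5 over time in MOTS-c cells. Of all genes, these fits called 41.2% to 48% at 72 h, 0% to 0.113% at 4 h and 30.7% to 38.4% in the interaction. Over time they called 60% to 63.5% in controls and 33.9% to 39.8% in MOTS-c cells. JUND joined in the interaction without replicate 1 or 2 of 72 h MOTS-c, 1 of 72 h control, 2 of 4 h MOTS-c or 1 of 4 h control (adjusted p 0.0295 to 0.0453). FOSL1 joined over time in MOTS-c cells without replicate 6 of 72 h MOTS-c, 5 of 72 h control, 2 or 6 of 4 h MOTS-c or 4 of 4 h control (adjusted p 0.0225 to 0.0478), and FOSL2 over time in controls without replicate 3 of 4 h control (0.0487). FOS and JUNB were dim at 4 h, so changes there are limited by signal over background. The cause of these shifts was not tested.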

Other observations

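Genes near AP-1 also changed with time in culture. Of the 17 tested AP-1 target genes, 10 rose and 1 fell between 4 h and 72 h in MOTS-c cells, with a median change of 0.33, where 19.9% of all genes rose and 18.2% fell. In control cells 12 rose and 2 fell, with a median change of 0.77, where 31.9% of all genes rose and 30.7% fell. Both counts of rises include MMP10, whose own change in control cells is that median of 0.77. MMP10 passed the detection filter mainly through the 72 h controls, so its calls carry no weight as evidence. CXCL8 rose by 2.81 ± 0.13 in MOTS-c cells (SE, adjusted p = 1.18e-14) and by 4.80 ± 0.13 in control cells (adjusted p = 1.49e-20) on the log2 scale, with n = 6 arrays per group. ATF3, of the dimer partner list, rose by 1.12 in MOTS-c cells (adjusted p = 2.15e-14) and by 1.61 in control cells (adjusted p = 1.42e-18). Its other probe, which gave 0.03 between MOTS-c and control cells at 72 h, is not given over time. Of the 9 tested dimer partners, 3 rose and 1 fell in MOTS-c cells, and 3 rose and 3 fell in control cells. Of 8 genes of turnover and co-regulation, 0 rose and 2 fell over time in MOTS-c cells, while 1 rose and 7 fell in control cells, JAZF1 among them, beside the same shares over all genes. DET1 was the one that rose in control cells, by 1.27 (adjusted p = 2.47e-16), and its change in MOTS-c cells was 0.01 (adjusted p = 0.92). These time changes share arrays with the comparisons of MOTS-c and control cells.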
